A study of Mus musculus with 9 samples.

Results

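The 10 genes described here, Fth1, Ftl1, Tfrc, Slc40a1, Slc11a2, Ncoa4, Aco1, Ireb2, Acsl4 and Aifm2, store, move or sense iron or act in the lipid peroxidation that iron drives. They were chosen by gene symbol among the 32427 genes of the matrices, and all 10 had UMIs in each of the 9 libraries. The data are droplet-based single-cell RNA libraries (DNBelab C4) of the kidneys of 9 male C57BL/6 mice, 6 weeks old on arrival and left to adapt before treatment, with part of 1 kidney used per mouse after 8 weeks. Control mice (n = 3) received saline. AKI-CKD mice (n = 3), named for acute kidney injury (AKI) that passes into chronic disease (CKD), received 4 weekly intraperitoneal injections of cisplatin at 8 mg/kg. AKI-CKD + EGT mice (n = 3) received the same cisplatin and, from 3 days before it until the end, ergothioneine (EGT), a sulfur-containing dietary antioxidant, at 0.5 mg/mL in drinking water. No group received EGT without cisplatin, so an effect of EGT in undamaged kidneys could not be measured.

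Cells keep iron in ferritin, a shell of heavy chains (Fth1) and light chains (Ftl1), and take it up through the transferrin receptor Tfrc or the divalent metal transporter Slc11a2. Slc40a1, ferroportin, is the known exporter of iron from cells, and Ncoa4 carries ferritin to lysosomes, where its iron is released. The RNA-binding proteins Aco1 and Ireb2 bind hairpins called iron-responsive elements when iron is low, which blocks translation of ferritin mRNA and stabilizes Tfrc mRNA. Acsl4 loads polyunsaturated fatty acids into phospholipids and so sensitizes cells to ferroptosis, a death by iron-dependent lipid peroxidation, whereas Aifm2 suppresses it. Proximal tubule (PT) cells, which reclaim filtered iron and take up cisplatin, are a main site of ferroptosis in injured kidneys.

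Stretches with the letters of such hairpins are shown first, because they occur in the transcripts of some members. The search looked in protein-coding transcripts of GENCODE vM21 (GRCm38 coordinates) for a C, 5 bases, a loop of CAGTG and then A, C or T, and 5 bases that pair with the first 5, G-T pairs allowed. Capitals mark the loop letters, each sequence is given 5′ to 3′ on the strand of the transcript, and the bases on both sides hold the stem. The 5′ UTRs of both ferritins and of Slc40a1 held 1 such site each, in exon 1 (exon 2 in 1 transcript of Fth1), and the 3′ UTR of Tfrc held 4, all in exon 19:
Fth1, 5′ UTR, chr19:9982731-9982760, + strand: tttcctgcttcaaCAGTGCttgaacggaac
Ftl1, 5′ UTR, chr7:45459779-45459808, - strand: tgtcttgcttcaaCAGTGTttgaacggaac
Slc40a1, 5′ UTR, chr1:45925465-45925494, - strand: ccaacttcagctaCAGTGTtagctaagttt
Tfrc, 3′ UTR, chr16:32631218-32631247, + strand: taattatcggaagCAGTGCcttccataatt
Tfrc, 3′ UTR, chr16:32631597-32631626, + strand: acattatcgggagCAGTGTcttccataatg
Tfrc, 3′ UTR, chr16:32631662-32631691, + strand: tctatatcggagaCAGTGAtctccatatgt
Tfrc, 3′ UTR, chr16:32631709-32631738, + strand: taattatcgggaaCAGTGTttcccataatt

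The letters were found in 4 of the 10 members and in 222 of 21877 protein-coding genes (1.01%), so a match alone is a description and not a shown site of binding. The other 6 members had no match to these letters in the transcripts searched, from which nothing follows about their control. The proteins act on translation of the ferritins and on stability of Tfrc mRNA. UMI counts give only the amount of an mRNA, so neither translation nor stability was measured.

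After filtering, 196925 of 216680 barcodes were kept, with library totals of 70106161 to 101525691 UMIs before filtering and a median of 2714 UMIs per kept cell. The study states fewer kept cells from the same number of barcodes under these thresholds, and how it reached them was not rebuilt here. Barcode names are running names that recur between libraries (62337 of 98290 distinct names in at least 2 libraries), so shared cells could not be looked for. Cells were clustered without the members and named from marker lists, which gave 12 named types. PT cells made up 155368 (78.9%), followed by distal convoluted tubule (DCT, 11745), loop of Henle (LOH, 8763), endothelial (Endo, 3723) and macrophage-like (Macro, 2855) cells, and 5479 cells stayed unnamed. Of these, 5117 formed a cluster led by hemoglobin genes, with 5 of 7 erythroid markers at 2-fold, which was left unnamed after it was seen. It made up 0.326% to 9.65% of the kept cells in Control, 0.251% to 0.451% in AKI-CKD and 1.29% to 5.72% in AKI-CKD + EGT mice, and its PT markers stood at a median of 88.1% to 101% of the PT level in the 9 mice. Its Fth1 level was 14155 ± 1861 and its Ftl1 level 6758 ± 1296 CPM (SD, n = 9), above every PT marker in 3 and 0 of 9 mice, and Tfrc was at 12.5 ± 7.5 CPM from 113 UMIs. PT transcripts were found in all other types and are read here as carried over, which was not tested. The 16 PT markers stood at a median of 34.98% of their PT level in collecting duct principal cells (CD-PC), 46.9% in DCT, 57.8% in Macro, 61.3% in LOH and up to 70.9% in podocytes. Shares of the PT level are therefore given for types outside PT cells, and a share inside the range of the PT markers is read as background. In cycling cells the median was 62.0% and the highest PT marker, Spp2, stood at 111%. Expression of their own and carried-over RNA cannot be told apart there. The carry-over also differed between mice, in DCT cells from 30.2% (AKI-CKD mouse 2) to 67.9% (Control mouse 1).

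UMIs of both ferritin chains were counted in every cell type. Together they took 1.70% to 1.84% of all UMIs in Control and 1.80% to 1.99% in AKI-CKD mice. In AKI-CKD + EGT mice 1, 2 and 3 the share was 2.04%, 1.73% and 1.22%. AKI-CKD + EGT mouse 3 was the lowest of the 9. Fth1 (in CPM, counts scaled to a fixed plain total of UMIs, mean ± SD over 9 mice) was highest in PT cells at 12215 ± 1697. It was 10523 ± 1129 in DCT, 10495 ± 1362 in LOH, 10254 ± 1906 in cycling, 10246 ± 1419 in podocyte (8 mice) and 10165 ± 1410.3 in Macro cells. Lower levels were found in B cells (8875 ± 1321), Myofb, the pericyte and smooth muscle type (7348 ± 1830.5), T cells (7245 ± 1216), Endo (6908 ± 1108), collecting duct intercalated cells (CD-IC, 6689.6 ± 1231) and CD-PC (5064 ± 878). Ftl1 was at 6484 ± 852 CPM in cycling, 6328 ± 1042 in PT, 5572 ± 814 in podocyte, 5244 ± 614 in Macro and 4786 ± 454 in LOH cells. It was at 4274 ± 650.1 CPM in B, 3845 ± 534 in DCT, 3781 ± 485 in Endo, 3739 ± 682 in T, 3381 ± 771 in Myofb, 3292 ± 625 in CD-IC and 2630.2 ± 430.5 in CD-PC cells. For both genes the mouse ranges of all neighbours in this order overlapped. Within single mice, Fth1 was higher in PT than in DCT cells in 9 of 9 mice and higher in CD-IC than in CD-PC cells in 9 of 9, while no neighbours of Ftl1 had the same order in every mouse.

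Set against the carried-over PT RNA, the ferritins of CD-PC cells were close to background. In CD-PC cells Fth1 stood at 42.9% ± 13.3 and Ftl1 at 43.0% ± 12.4 (SD, n = 9) of the PT level, where the PT markers had means of 28.7% to 39.7%. They exceeded every PT marker in 1 of 9 mice for Fth1 and 2 of 9 for Ftl1. With no gene kept out of the clustering, which redraws these types, the CD-PC levels were 7324 CPM for Fth1 and 3412 CPM for Ftl1. In CD-IC cells the shares were 56.4% ± 16.3 and 53.9% ± 16.1 (SD, n = 9), above every PT marker in 6 of 9 mice for both. In Endo cells Fth1 exceeded every PT marker in 0 and Ftl1 in 6 of 9 mice, in B cells it was 1 and 0 mice, and in T cells 1 mouse each. In cycling cells, where Ftl1 had its highest mean, Fth1 exceeded every PT marker in 0 and Ftl1 in 3 of 9 mice, and in podocytes it was 1 of 8 mice each. In Myofb cells it was 3 and 1 of 9 mice, and in DCT cells 9 and 7. In Macro cells, which recycle iron from engulfed cells, Fth1 was at 83.6% ± 7.4 and Ftl1 at 83.8% ± 9.0 (SD, n = 9), above every PT marker in 9 of 9 mice for both. In LOH cells the shares were 86.3% ± 6.5 and 76.8% ± 9.1 (SD, n = 9), above every PT marker in 9 and 8 of 9 mice. Reads of Ftl1 can also fall on Ftl1-ps1, a near-identical pseudogene listed separately at 275 CPM in PT cells, so the Ftl1 level carries that uncertainty.

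**Figure D1:**
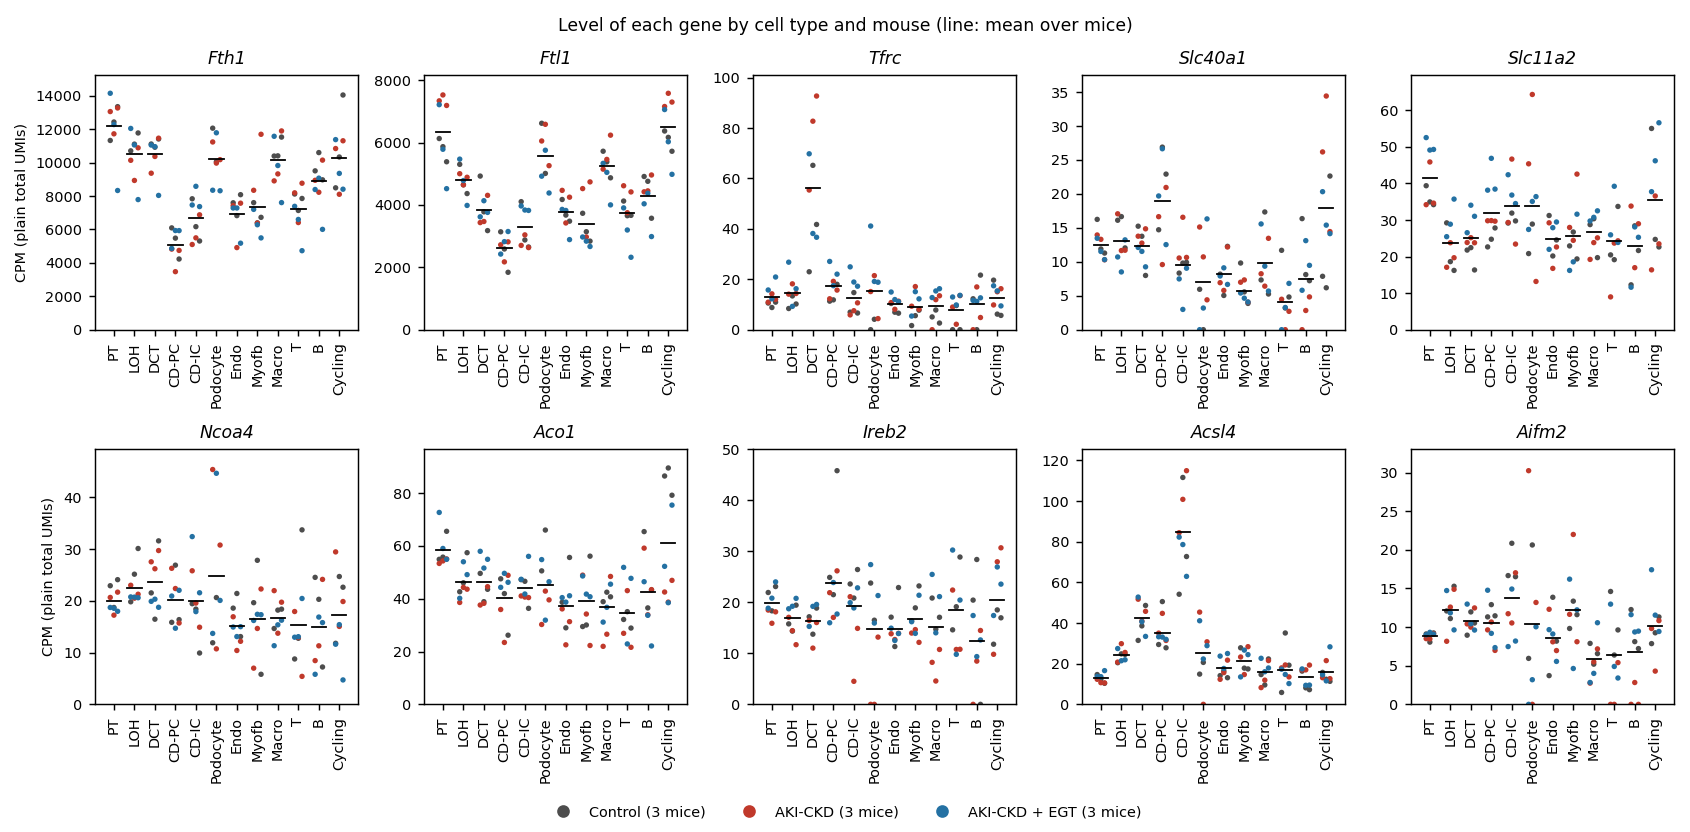
Level of each of the 10 genes in CPM (vertical axis, plain total UMIs) in the 12 named cell types, with 1 point per mouse colored by group and a line at the mean. Tfrc has its highest mean in DCT cells at 56.2 CPM and Acsl4 in CD-IC cells at 84.7 CPM.

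Among the PT cells, 2 clustered subsets had opposite chain levels, and 74878 PT cells (48.2%) lay in neither. In the S1-like cells (51223 cells, early segment) Fth1 was at 10253 ± 1435 and Ftl1 at 7179 ± 1070.1 CPM (SD, n = 9). In the S3-like cells (29267 cells, late segment) Fth1 was at 13163 ± 1742 and Ftl1 at 4781 ± 844 CPM (SD, n = 9). Each mouse had the higher Ftl1 in its S1-like and the higher Fth1 in its S3-like cells. These subsets were defined by clustering, so the difference is a description.

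Tfrc, the transferrin receptor, had its highest level in DCT cells. It was at 56.2 ± 23.2 CPM in DCT cells (SD, n = 9), or 459% ± 213 of the PT level, and above every PT marker in 9 of 9 mice. The next types were CD-PC (17.2 ± 5.2), podocyte (15.5 ± 13.1, n = 8), LOH (14.5 ± 5.6), PT (12.9 ± 3.6), cycling (12.8 ± 5.1) and CD-IC cells (12.6 ± 6.7). It was lowest in Endo (10.2 ± 2.7), B (10.1 ± 7.3), Macro (9.5 ± 5.8), Myofb (9.1 ± 4.9) and T cells (7.8 ± 5.7). Since the lowest DCT value, 22.99 CPM in Control mouse 1, lay within the range of CD-PC cells, the mouse ranges of these neighbours overlapped, although DCT was the higher in 9 of 9 mice when both were taken from the same mouse. Tfrc exceeded every PT marker in 9 of 9 mice in CD-PC, in 8 of 9 in CD-IC, in 7 of 9 in Endo and in 6 of 9 in LOH, Macro, Myofb and T cells, beside 4 of 9 in cycling, 3 of 9 in B and 4 of 8 in podocyte cells. It was below the median PT marker in 3 of 9 mice in Macro and T, 2 in Myofb, 1 in Endo and 0 in LOH cells. Such counts are imprecise where a low gene has few UMIs per mouse, also for the other low members.

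The DCT signal lay in 1 of 2 clusters. In the cluster led by Slc12a3 (the thiazide-sensitive sodium chloride cotransporter) and Pvalb, with 6709 cells, Tfrc was at 86.7 ± 38.8 CPM (SD, n = 9). In the cluster led by Calb1, the later segment, with 5036 cells, it was at 13.8 ± 5.5 CPM, close to the PT level. In every mouse the first cluster was the higher, from 29.8 against 10.3 CPM in Control mouse 1 to 151 against 11.4 CPM in AKI-CKD mouse 3. Acsl4 was also higher in the first cluster, at 49.5 ± 10.1 against 33.3 ± 5.6 CPM (SD, n = 9), and Slc11a2 was at 25.02 and 25.04 CPM.

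Slc11a2, the importer of ferrous iron, had its highest mean level in PT cells at 41.6 ± 7.6 CPM. It was at 35.5 ± 14.8 in cycling, 33.9 ± 15.7 in podocyte, 33.8 ± 7.2 in CD-IC and 32.0 ± 7.7 CPM in CD-PC cells. The other types lay between 23.01 ± 7.9 (B) and 26.7 ± 4.9 CPM (Macro), with LOH at 23.8 ± 6.6, DCT at 24.995 ± 5.2, Endo at 24.9 ± 4.9, T at 24.4 ± 8.6 and Myofb at 25.6 ± 8.0. In LOH cells it stood at 57.0% ± 9.96 of the PT level, above every PT marker in 0 of 9 mice, which is background. In CD-IC and CD-PC cells, at 81.4% ± 11.05 and 77.1% ± 11.8, it exceeded every PT marker in 8 and 9 of 9 mice. It did so in 5 of 9 in DCT, Endo and Myofb, 4 of 9 in T, 2 of 9 in Macro, 1 of 9 in B and cycling and 2 of 8 in podocyte cells.

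Slc40a1, the exporter, was a low gene with its highest mean in CD-PC cells (19.0 ± 6.1 CPM, SD, n = 9). With no gene kept out of the clustering, the CD-PC mean was 13.8 ± 2.9 CPM and cycling cells had the highest, as they did without Harmony. It was at 17.96 ± 8.9 in cycling, 13.1 ± 2.9 in LOH, 12.5 ± 1.9 in PT, 12.4 ± 2.5 in DCT and 9.5 ± 3.5 CPM in CD-IC cells. It was at 8.2 ± 2.6 in Endo, 7.5 ± 5.0 in B, 7.0 ± 6.4 in podocyte, 5.8 ± 2.0 in Myofb and 4.1 ± 3.6 CPM in T cells. Macro cells, the type best known for ferroportin, held only 94 Slc40a1 UMIs over the 9 mice and were at 9.9 ± 4.5 CPM. Their 80.8% ± 39.7 of the PT level was above every PT marker in 4 of 9 mice. Slc40a1 exceeded every PT marker in 9 of 9 mice in CD-PC (157% ± 60.2 of the PT level) and DCT, in 8 of 9 in LOH, in 6 of 9 in CD-IC and cycling and in 5 of 9 in Endo cells. In Myofb cells, at 45.1% ± 8.6, it did so in 0 of 9 mice, in T cells in 1 of 9, in B cells in 2 of 9 and in podocytes in 2 of 8.

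Ncoa4, the ferritin receptor of autophagy, had overlapping mouse ranges across the tubule. In both other clusterings its highest mean was in DCT instead of podocyte cells. It was at 24.7 ± 14.0 CPM in podocyte, 23.6 ± 5.3 in DCT, 22.4 ± 3.3 in LOH, 20.1 ± 4.7 in CD-PC, 20.1 ± 2.4 in PT and 19.99 ± 6.4 in CD-IC cells. It was at 17.3 ± 7.6 CPM in cycling, 16.6 ± 3.3 in Macro, 16.5 ± 6.9 in Myofb, 15.3 ± 8.2 in T, 15.1 ± 3.4 in Endo and 14.9 ± 7.1 in B cells. Its share of the PT level was above every PT marker in 9 of 9 mice in CD-PC, DCT and LOH cells (117% ± 21.8 in DCT, SD, n = 9), in 8 of 9 in CD-IC and Macro, in 7 of 9 in Endo and Myofb and in 6 of 9 in T cells. In B (3 of 9), cycling (2 of 9) and podocyte cells (4 of 8) it was so in fewer mice.

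Of the iron-sensing proteins, Aco1, also the cytosolic aconitase, was at 61.1 ± 21.3 CPM in cycling and 58.4 ± 6.5 in PT cells. The other tubular types were at 46.3 ± 7.5 (DCT), 46.2 ± 6.3 (LOH), 44.2 ± 5.8 (CD-IC) and 40.5 ± 9.8 CPM (CD-PC). Podocytes were at 45.3 ± 11.9, B at 42.7 ± 13.3, Myofb at 39.1 ± 11.003, Endo at 37.1 ± 9.3, Macro at 36.9 ± 8.8 and T cells at 34.5 ± 10.9 CPM. Ireb2 was at 23.9 ± 9.0 CPM in CD-PC, 20.4 ± 7.3 in cycling, 19.96 ± 2.7 in PT, 19.2 ± 6.4 in CD-IC and 18.6 ± 7.7 in T cells. It was at 16.8 ± 3.0 CPM in LOH, 16.8 ± 3.7 in Myofb, 16.4 ± 2.8 in DCT, 15.2 ± 6.7 in Macro, 14.8 ± 3.4 in Endo, 14.8 ± 10.2 in podocyte and 12.4 ± 9.2 in B cells. No neighbours of either gene had ranges apart. With no gene kept out of the clustering, the highest means were in PT cells for Aco1 and in podocytes for Ireb2, and without Harmony in PT cells for Ireb2. Aco1 exceeded every PT marker in 9 of 9 mice in CD-IC and DCT, in 7 of 9 in CD-PC and LOH, in 6 of 9 in Myofb and in 5 of 9 in Endo cells. In Macro cells, at 63.9% ± 17.1 of the PT level, it did so in 2 of 9 mice, in T and cycling cells in 3 of 9, in B cells in 2 of 9 and in podocytes in 1 of 8. Ireb2 exceeded every PT marker in 9 of 9 mice in CD-PC and DCT, in 8 of 9 in CD-IC and Myofb and in 7 of 9 in LOH and Endo cells. In Macro cells, at 74.7% ± 30.8 of the PT level, it did so in 6 of 9 mice, in T cells in 6 of 9, in cycling cells in 4 of 9, in B cells in 2 of 9 and in podocytes in 2 of 8.

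Acsl4 had its highest level in CD-IC cells. In CD-IC cells, which secrete acid or base, it was at 84.7 ± 20.9 CPM (SD, n = 9), or 695% ± 247 of the PT level. The lowest CD-IC mouse (54.2 CPM, Control mouse 1) was above the highest DCT mouse (52.8 CPM, AKI-CKD + EGT mouse 1), the only neighbours with ranges apart among 110 pairs over the 10 members. Within single mice, 4 of the 110 pairs had the same order in every mouse, this one, both Fth1 pairs and the Tfrc pair above. DCT followed at 42.7 ± 7.6, CD-PC at 35.3 ± 7.5, podocyte at 25.5 ± 14.5, LOH at 24.1 ± 3.2 and Myofb at 21.6 ± 5.8 CPM. Endo was at 17.7 ± 4.7, T at 17.0 ± 8.1, Macro at 16.1 ± 5.5, cycling at 15.7 ± 5.7, B at 13.5 ± 4.8 and PT, the lowest, at 12.8 ± 2.1 CPM. In the other types Acsl4 exceeded every PT marker in 9 of 9 mice in CD-PC, DCT, Endo, LOH, Macro and Myofb, 7 of 9 in T, 5 of 9 in B, 3 of 9 in cycling and 6 of 8 in podocyte cells. Aifm2 was low in all types (highest in podocytes, at 16.6 ± 7.2 CPM, with no gene kept out of the clustering), from 13.8 ± 4.5 CPM in CD-IC over 12.3 ± 2.4 in LOH, 12.2 ± 4.9 in Myofb, 10.8 ± 1.4 in DCT and 10.5 ± 2.5 in CD-PC to 8.9 ± 0.4 in PT cells. Podocytes were at 10.4 ± 10.7, cycling at 10.2 ± 3.5, Endo at 8.6 ± 3.1, B at 6.8 ± 4.7, T at 6.4 ± 5.2 and Macro cells at 5.8 ± 2.5 CPM. Aifm2 exceeded every PT marker in 9 of 9 mice in CD-IC, CD-PC, DCT and LOH cells (156% ± 54.5 of the PT level in CD-IC), in 7 of 9 in Endo and Myofb, in 5 of 9 in cycling, in 4 of 9 in B and T, in 4 of 8 in podocyte and in 3 of 9 in Macro cells (65.4% ± 27.4).

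**Figure D2:**
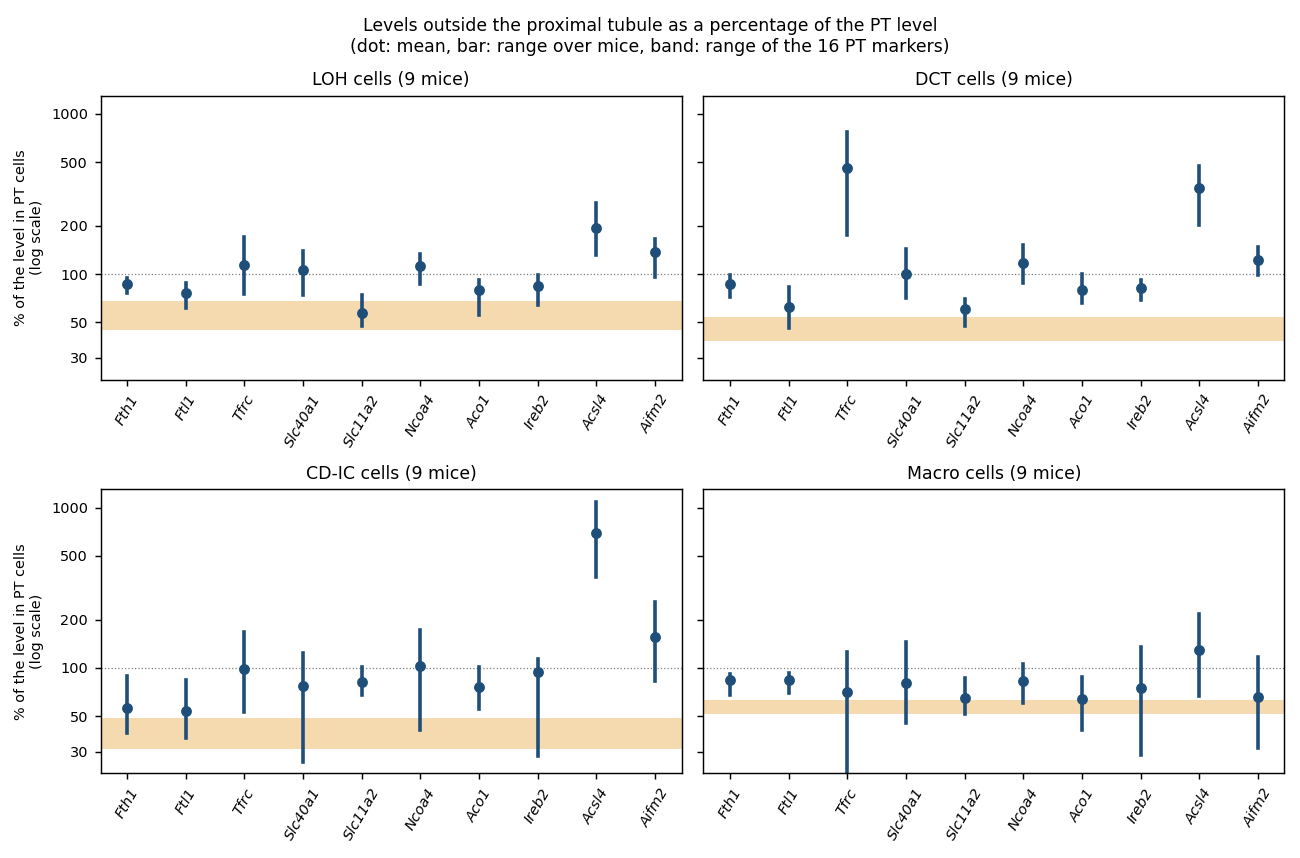
Level of each gene in LOH, DCT, CD-IC and Macro cells as a percentage of the level in PT cells of the same mouse (log axis), with the mean over 9 mice as a dot and their range as a bar. The band spans the means of the 16 PT markers in that type, 38.5% to 54.3% in DCT cells, where Tfrc stood at 459% and Acsl4 at 347%, and the Tfrc bar of Macro cells runs off the axis at its lower end.

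The comparison of AKI-CKD with Control mice addresses what cisplatin injury left behind in these genes. In PT cells no member was called by edgeR's quasi-likelihood test at a Benjamini-Hochberg adjusted p under 0.05 (0 of 10), beside 8 of 18031 genes tested (0.0444%). By DESeq2 it was also 0 of 10, beside 188 of 30263 genes. At an unadjusted p under 0.05 there was 1 member (Tfrc), beside 11.3% of all genes. The members' median log2 fold change was 0.05, beside -0.01 over all genes.

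The 3 AKI-CKD mice lay apart from the 3 Control mice in PT cells for 2 of 10 members, Ftl1 and Tfrc, both higher, beside 20.9% of all genes tested. PT Ftl1 (CPM on library sizes scaled by TMM, which evens out differences in RNA composition) was 5775, 6258 and 5518 in Control mice 1, 2 and 3 and 7652, 7995 and 8108 in AKI-CKD mice 1, 2 and 3. All AKI-CKD mice were above all Control mice, with a log2 fold change of 0.44 ± 0.23 (SE), adjusted p = 0.484. Tfrc was 9.96, 9.38 and 11.2 CPM in Control and 11.4, 15.1 and 13.5 CPM in AKI-CKD mice, with a log2 fold change of 0.39 ± 0.16 (SE), adjusted p = 0.429. Here too the groups did not overlap, with AKI-CKD mouse 1 just above Control mouse 3. Fth1 overlapped, with means of 12540 ± 1629 CPM for Control and 13682 ± 1259 CPM for AKI-CKD (SD, n = 3 each). The other 8 members had PT log2 fold changes between -0.17 and 0.17.

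Ftl1 of AKI-CKD mice was also higher in both named PT subsets. In S1-like cells it was 6722, 6901 and 6344 CPM in Control and 8305, 8081 and 8314 CPM in AKI-CKD mice (plain total UMIs). In S3-like cells it was 4591, 4543 and 4084 CPM in Control and 5780.5, 5486 and 5655 CPM in AKI-CKD mice. The groups did not overlap in either subset. Both subsets are parts of the PT cells compared above, so this is not separate support. No share over all genes was computed for the subsets, and in all PT cells it was 20.9%.

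The comparison of AKI-CKD + EGT with AKI-CKD mice addresses what EGT changed on top of cisplatin. No member was called in PT cells by edgeR (0 of 10, beside 0 of 18031 genes, 0%). By DESeq2 it was 0 of 10 as well, beside 404 of 30263 genes. At an unadjusted p under 0.05 there were 2 members, Ftl1 and Ncoa4, both lower, beside 15.1% of all genes. The groups did not overlap for 2 members, beside 21.1% of all genes, and the members' median log2 fold change was -0.09, beside -0.01 over all genes. Without AKI-CKD + EGT mouse 1 the members' median was -0.21, and without mouse 3 it was -0.01.

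PT Ftl1 was 7171, 5498 and 3718 CPM in AKI-CKD + EGT mice 1, 2 and 3, all below the lowest AKI-CKD mouse (7652). The log2 fold change was -0.54 ± 0.23 (SE), with adjusted p = 0.312. It was -0.31 without AKI-CKD + EGT mouse 3 (adjusted p = 0.685) and -0.78 without mouse 1 (adjusted p = 0.0953). Mouse 3 also stood apart in its cells, of which 51.3% were PT cells, beside 70.9% to 89.6% in the other 8 mice, and its mitochondrial share of 6.39% of UMIs was the highest of the 9. The mitochondrial limit removed 27.7% of its barcodes that passed the other limits, beside 0.909% to 17.0% in the other 8 mice. The part of these properties in the Ftl1 difference was not tested. AKI-CKD + EGT mouse 1 lay close to the AKI-CKD mice and above all Control mice, while mice 2 and 3 lay below all Control mice, and the SD was 1727 CPM in the treated and 238 CPM in the AKI-CKD mice (n = 3 each). Within S1-like cells Ftl1 was 7889, 6932 and 5119 CPM and within S3-like cells 5425, 4079.7 and 3386 CPM, below all AKI-CKD mice in both. These subsets are parts of the same PT cells, and no share over all genes was computed for them. Fth1 was 14069, 11674 and 6853 CPM in AKI-CKD + EGT mice, against 13619, 12456 and 14971 CPM in AKI-CKD mice, and the groups overlapped.

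Acsl4 was the other PT gene without overlap, at 12.9, 11.3 and 11.9 CPM in AKI-CKD and 13.6, 12.9 and 13.6 CPM in AKI-CKD + EGT mice. The log2 fold change was 0.16 ± 0.12 (SE), with adjusted p = 0.569. The lowest treated mouse stood just above the highest AKI-CKD mouse. PT Ncoa4 was 21.5, 18.3 and 24.5 CPM in AKI-CKD and 18.6, 17.6 and 14.8 CPM in AKI-CKD + EGT mice, where only AKI-CKD mouse 2 lay within the range of the treated mice (log2 fold change -0.33 ± 0.14, SE, adjusted p = 0.314). The 8 members with overlapping groups had log2 fold changes between -0.33 and 0.18.

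**Figure D3:**
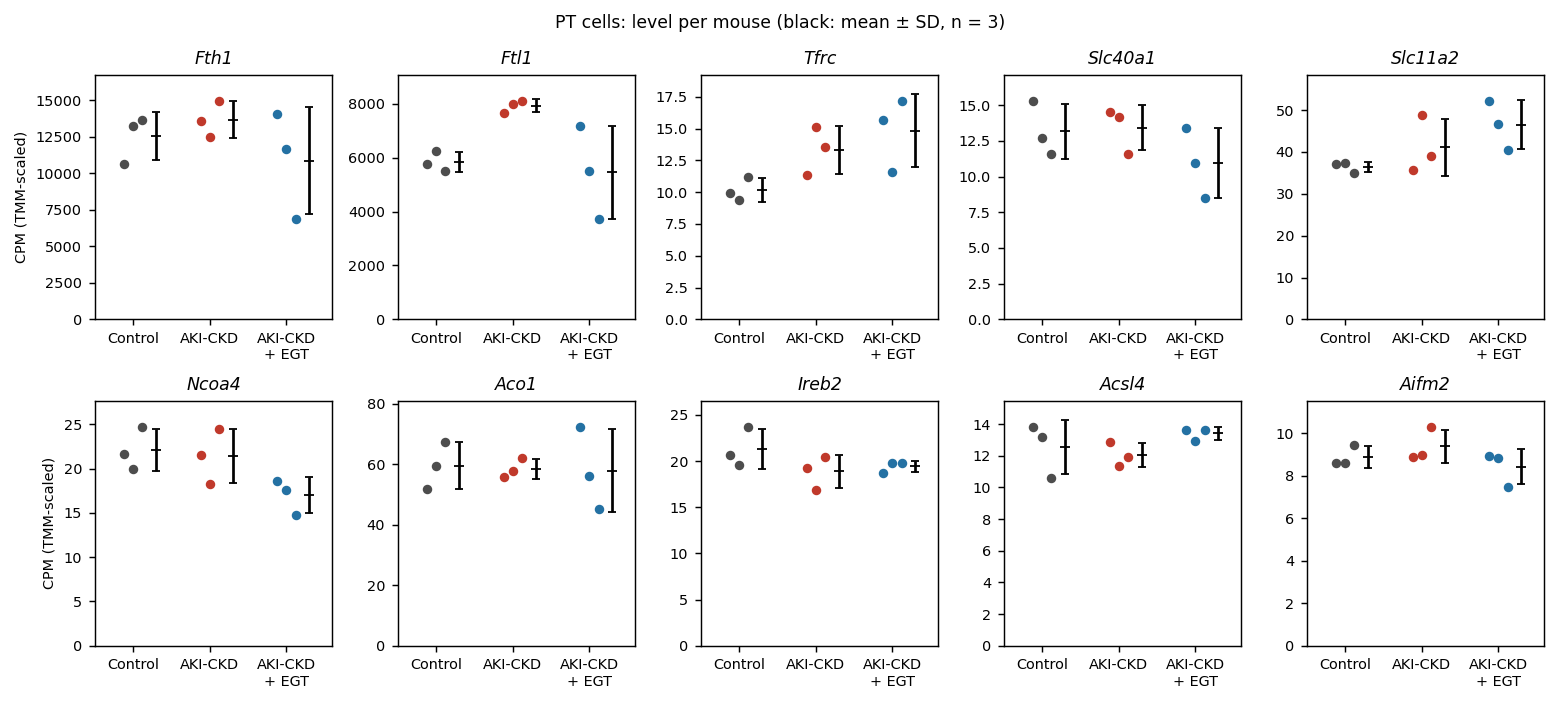
CPM on TMM-scaled library sizes of each gene in PT cells, with 1 point per mouse and the mean ± SD (n = 3) in black. Ftl1 was 5518 to 6258 CPM in Control, 7652 to 8108 CPM in AKI-CKD and 3718 to 7171 CPM in AKI-CKD + EGT mice, and Tfrc of AKI-CKD mice lay above Control.

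Over all kept cells, a smaller share of a cell type and less RNA per cell cannot be told apart. Ftl1 and Tfrc had groups without overlap there. PT cells made up 78.9% of these cells, so this is not separate support for the PT values. By edgeR 0 of 10 members were called in both comparisons, beside 0.0199% and 0.00496% of 20144 genes. DESeq2 called 0 of 10 in both, beside 109 and 215 of 32224 genes. At an unadjusted p under 0.05 there were 1 and 2 members, beside 8.02% and 12.7% of all genes. Ftl1 was 5639.7, 6024 and 5495 CPM in Control and 7325, 6941 and 8156 CPM in AKI-CKD mice without overlap, with a log2 fold change of 0.39 ± 0.24 (SE) and adjusted p = 0.671. It was 6675, 5107 and 3476 CPM in AKI-CKD + EGT mice, below all AKI-CKD mice, with a log2 fold change of -0.56 ± 0.24 (SE) and adjusted p = 0.379. Tfrc was 10.4, 11.6 and 11.996 CPM in Control and 12.9, 17.0 and 15.8 CPM in AKI-CKD mice, with a log2 fold change of 0.43 ± 0.17 (SE) and adjusted p = 0.578. These were 2 members without overlap against Control (15.8% of all genes) and 1 against AKI-CKD (18.3%).

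In DCT cells Tfrc had the largest fitted changes of the 10 members, but the mice overlapped. It is given in full although it was chosen after its values were seen. It was 24.04, 64.7 and 40.0 CPM in Control, 56.5, 86.8 and 95.8 in AKI-CKD and 67.3, 36.1 and 36.5 CPM in AKI-CKD + EGT mice (TMM-scaled). The mean was highest in AKI-CKD mice, with Control mouse 2 inside their range and AKI-CKD + EGT mouse 1 above AKI-CKD mouse 1. The log2 fold change was 0.89 ± 0.35 (SE, adjusted p = 0.530) against Control and -0.77 ± 0.34 (SE, adjusted p = 0.372) with EGT. Without edgeR's filter on low counts both were called, at 0.88 ± 0.20 and -0.76 ± 0.20 (log2, SE) with adjusted p = 0.00333 and 0.0120, beside 0.96% and 2.08% of the 24989 genes of that fit, while DESeq2 called neither. Within the Slc12a3 and Pvalb cluster Tfrc was 29.8, 102 and 68.2 CPM in Control, 98.7, 124 and 151 in AKI-CKD and 102, 58.8 and 46.3 CPM in AKI-CKD + EGT mice. That cluster made up 54.5% to 60% of the DCT cells of Control, 50.4% to 53.9% of AKI-CKD and 52.3% to 62.9% of AKI-CKD + EGT mice. The carried-over PT share in DCT cells was 41.0% to 67.9% in Control and 30.2% to 47.4% in AKI-CKD mice. It was 34.3% to 66.6% in AKI-CKD + EGT mice. The part of the cluster shares and of the PT shares in the Tfrc difference was not tested.

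DCT cells had no called member in either comparison by edgeR (0 of 10, beside 0% of 11635 genes in both). DESeq2 also called none, beside 11 and 80 of 24987 genes. At an unadjusted p under 0.05 by edgeR there were 1 and 3 members, beside 8.97% and 12.8% of all genes. Against Control, 1 member did not overlap (15.8% of all genes). DCT Slc11a2 was 22.8, 22.3 and 15.7 CPM in Control and 24.3, 26.4 and 24.6 CPM in AKI-CKD mice, with a log2 fold change of 0.30 ± 0.19 (SE) and adjusted p = 0.639. It stood at 60.4% ± 8.4 of the PT level (SD, n = 9), above every PT marker in 5 of 9 mice, and the part of carried-over RNA in the difference was not tested.

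With EGT, 3 DCT members did not overlap (17.6% of all genes). Ncoa4 was 28.1, 27.5 and 30.7 CPM in AKI-CKD and 19.2, 19.2 and 18.7 CPM in AKI-CKD + EGT mice, with a log2 fold change of -0.59 ± 0.21 (SE) and adjusted p = 0.326. The treated mice lay close together, and Control mice spanned 16.3 to 30.3 CPM. Slc40a1 was 14.0, 13.4 and 15.4 CPM in AKI-CKD and 11.7, 10.9 and 9.23 CPM in AKI-CKD + EGT mice, with a log2 fold change of -0.43 ± 0.26 (SE) and adjusted p = 0.482. Aco1 was 38.3, 40.1 and 46.1 CPM in AKI-CKD and 55.9, 48.9 and 54.8 CPM in AKI-CKD + EGT mice, with a log2 fold change of 0.37 ± 0.16 (SE) and adjusted p = 0.371. The carried-over PT share in DCT cells was 30.2% to 47.4% in AKI-CKD and 34.3% to 66.6% in AKI-CKD + EGT mice. Its part in these 3 differences was not tested.

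LOH cells, from the segment that dilutes the urine, had no called member by edgeR (0 of 10 in both comparisons, beside 0.103% and 0.15% of 10679 genes). DESeq2 also called none, beside 47 and 104 of 23628 genes. At an unadjusted p under 0.05 there were 0 and 1 members, beside 11.6% and 14.3% of all genes. Against Control, 2 members did not overlap (17.2% of all genes), both lower. Fth1 was 11124, 11663 and 11387 CPM in Control and 10072, 8923 and 11055 CPM in AKI-CKD mice, with a log2 fold change of -0.19 ± 0.18 (SE) and adjusted p = 0.739. Aco1 was 44.3, 48.4 and 55.5 CPM in Control and 38.3, 44.2 and 44.3 CPM in AKI-CKD mice, with a log2 fold change of -0.21 ± 0.17 (SE) and adjusted p = 0.674. The closest mice of the groups were both at 44.3 CPM. The carried-over PT share in LOH cells was 60.1% to 68.2% in Control and 46.7% to 59.4% in AKI-CKD mice, and its part in these differences was not tested.

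With EGT, 3 LOH members did not overlap (17.7% of all genes). Slc11a2 was 17.0, 23.8 and 19.98 CPM in AKI-CKD and 24.9, 28.1 and 35.3 CPM in AKI-CKD + EGT mice, with a log2 fold change of 0.55 ± 0.25 (SE) and adjusted p = 0.327. Its LOH level was within the carried-over PT share, and that share was 46.7% to 59.4% in AKI-CKD and 60.2% to 68.1% in AKI-CKD + EGT mice, whose part in the difference was not tested. Ireb2 was 17.0, 14.4 and 11.9 CPM in AKI-CKD and 18.3, 18.7 and 20.6 CPM in AKI-CKD + EGT mice, with a log2 fold change of 0.44 ± 0.22 (SE) and adjusted p = 0.369. Ncoa4 was 22.9, 20.5 and 21.6 CPM in AKI-CKD and 20.3, 20.2 and 20.4 CPM in AKI-CKD + EGT mice, a difference of -0.09 ± 0.20 (log2, SE) with adjusted p = 0.887. The part of carried-over PT RNA in the Ireb2 and Ncoa4 differences was not tested. Without the Harmony step, and with no gene kept out of the clustering, 0 members were without overlap in LOH cells in both comparisons, and the Ncoa4 difference turned to 0.09 in both settings.

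In Macro cells 9 of the 10 members passed the low-count filter (Aifm2 did not, with 1 to 14 UMIs per mouse). None was called by edgeR (0 of 9 in both comparisons, beside 0.0444% and 0.0111% of 9015 genes). DESeq2 also called none, beside 21 and 11 of 21170 genes. By edgeR 1 member in each comparison, Ireb2, had an unadjusted p under 0.05, beside 7.69% and 8.02% of all genes. Ireb2 was 20.04, 14.8 and 16.9 CPM in Control, 8.68, 4.88 and 10.96 in AKI-CKD and 25.6, 13.5 and 20.02 CPM in AKI-CKD + EGT mice. All AKI-CKD mice lay below all mice of both other groups. The log2 fold change was -1.10 ± 0.41 (SE, adjusted p = 0.569) against Control and 1.22 ± 0.41 (SE, adjusted p = 0.551) with EGT. These values rest on few molecules, 37, 17 and 13 UMIs in Control, 3, 5 and 12 in AKI-CKD and 18, 21 and 26 in AKI-CKD + EGT mice. This was the 1 member without overlap against Control (13.3% of all genes). Macro Ireb2 stood at 74.7% ± 30.8 of the PT level (SD, n = 9), above every PT marker in 6 and below their median in 3 of 9 mice. The carried-over PT share in Macro cells was 51.9% to 70.5% in Control and 46.1% to 66.2% in AKI-CKD mice. In AKI-CKD + EGT mice it was 51.3% to 62.3%. The part of carried-over RNA in the Ireb2 differences was not tested.

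With EGT, Ftl1 and Slc11a2 of Macro cells also did not overlap, which made 3 members (12.7% of all genes). Ftl1 was 5498, 5411 and 4822 CPM in Control, 5419, 5814 and 6348 in AKI-CKD and 5359.8, 4852 and 3790 CPM in AKI-CKD + EGT mice. The log2 fold change with EGT was -0.33 ± 0.22 (SE) with adjusted p = 0.721. AKI-CKD mouse 1 stood just above AKI-CKD + EGT mouse 1. Slc11a2 was 20.2, 25.4 and 25.6 CPM in AKI-CKD and 29.9, 29.6 and 30.8 CPM in AKI-CKD + EGT mice, with a log2 fold change of 0.30 ± 0.26 (SE) and adjusted p = 0.801. Macro Slc11a2 stood at 64.8% ± 11.1 of the PT level (SD, n = 9), above every PT marker in 2 of 9 mice. Macro Ftl1 stood at 83.8% ± 9.0, above every PT marker in 9 of 9 mice. PT Ftl1 of the same mice had a log2 fold change of -0.54 ± 0.23 (SE) with EGT. The part of carried-over RNA in the Ftl1 and Slc11a2 differences of Macro cells was not tested. Tfrc of Macro cells rested on at most 23 UMIs per mouse, so its level there is imprecise. In Endo cells 0 of 10 members were called by edgeR (beside 0% and 0.00962% of 10395 genes). DESeq2 also called none, beside 28 and 84 of 23067 genes. By edgeR 0 members had an unadjusted p under 0.05 (8.96% and 9.87% of all genes), and 0 were without overlap (14.7% and 15.1% of all genes). Their log2 fold changes lay between -0.43 and 0.34.

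**Figure D4:**
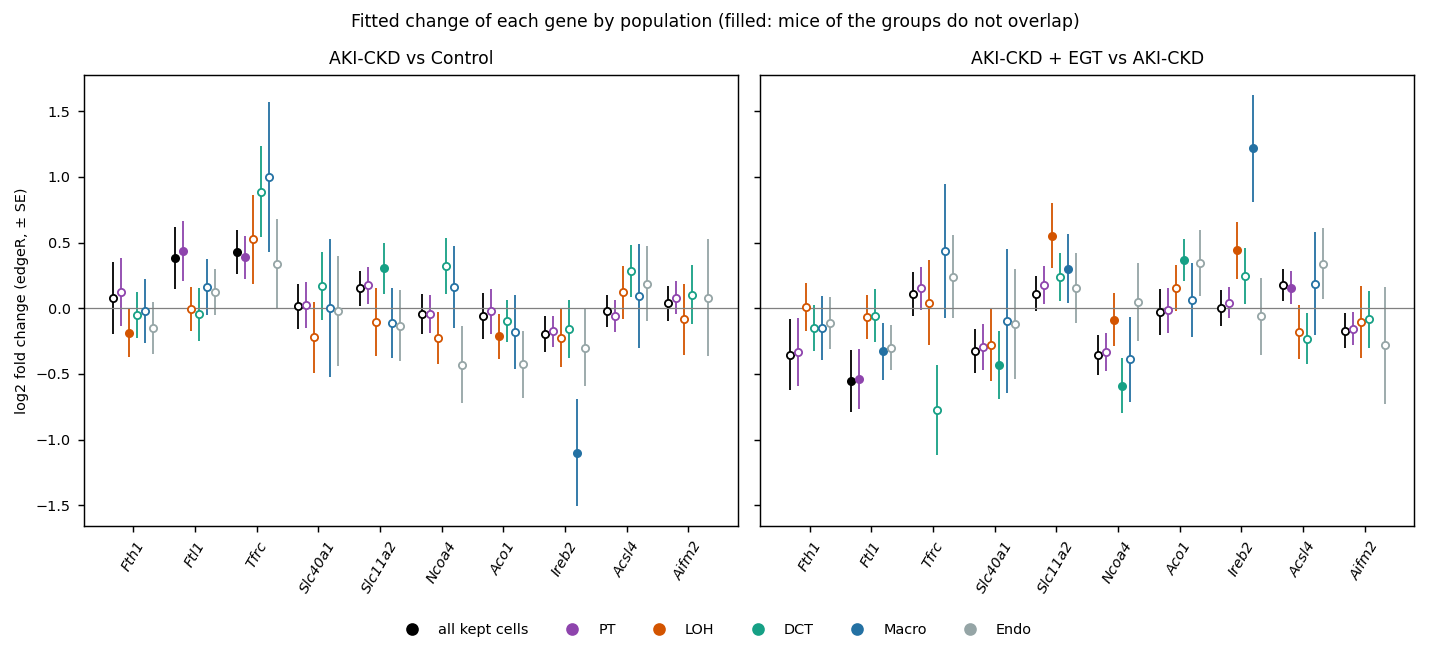
Fitted log2 fold change (edgeR, ± SE) of each gene in 6 populations, left for the cisplatin comparison and right for the EGT comparison, with filled points where the mice of the groups do not overlap. Ireb2 in Macro cells has the largest values, -1.10 and 1.22, and no point passed the adjusted threshold.

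Whether a change differed between cell types was tested directly with limma on the difference between types within each mouse. No member was called for LOH, DCT or Macro against PT cells in either comparison (0 of 10, 0 of 10 and 0 of 9), where 0% of 11604 genes were called for DCT and 0% of 8804 genes for Macro cells in both comparisons. For LOH minus PT, 0.00937% of 10669 genes were called against Control and 2.08% with EGT. At an unadjusted p under 0.05 there were 2 ferritin genes in each (12.5% and 17.6% of all genes). The Ftl1 change against Control in LOH minus that in PT cells was -0.43 ± 0.15 (log2, SE, adjusted p = 0.243, limma). With EGT this difference was 0.51 ± 0.15 (SE, adjusted p = 0.0712, limma). For Fth1 the differences were -0.32 ± 0.15 (adjusted p = 0.390, limma) and 0.38 ± 0.15 (adjusted p = 0.178, limma). For DCT minus PT, 0 and 1 members had an unadjusted p under 0.05 (5.52% and 10.4% of all genes), with Tfrc at -0.94 ± 0.35 with EGT (SE, adjusted p = 0.427, limma). For Macro minus PT it was 1 member in each (6.45% and 7% of all genes), Ireb2 at -0.88 ± 0.35 and 1.15 ± 0.35 (SE, adjusted p = 0.749 and 0.663, limma). The PT shares in LOH cells given above differed between the groups in the same directions, and their part in these differences was not tested. The part of the PT shares in DCT and Macro cells was not tested either. LOH Ftl1 itself had log2 fold changes of -0.0034 ± 0.17 and -0.06 ± 0.17 (SE). With EGT and without the 6% of cells with the highest doublet scores, the Ftl1 difference was called (0.59 ± 0.15, adjusted p = 0.0456, limma), beside 2.92% of all genes. So it was without AKI-CKD + EGT mouse 1 (0.63 ± 0.15, adjusted p = 0.0127, limma), beside 8.29% of all genes.

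Taken across groups, Ftl1 of PT cells tended to be higher in mice with higher levels of the ribosomal protein genes. The sum of these 98 genes was 16.05 to 16.19 log2 CPM in Control, 16.37 to 16.50 in AKI-CKD and 16.06 to 16.27 in AKI-CKD + EGT mice. Control and AKI-CKD mice did not overlap in it, so the relation over 9 mice includes the difference between groups. Over the 9 mice Pearson's r with Ftl1 was 0.85 (exact permutation p = 0.00472, adjusted p = 0.0378 over 8 relations) and Spearman's rho was 0.78 (exact permutation p = 0.0172, adjusted p = 0.138). Within groups r was 0.72 (exact permutation p = 0.144 over 216 arrangements). Without AKI-CKD mice 2 and 3, the farthest from the median of the ribosomal sum, it was 0.81 (n = 7, exact permutation p = 0.0280). The part of the ribosomal protein genes in the Ftl1 difference was not tested.

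The other 7 relations did not pass the adjusted threshold. PT Fth1 had r = 0.40 with the ribosomal sum (exact permutation p = 0.310, adjusted p = 0.413) and r = -0.66 with the mitochondrial percentage (exact permutation p = 0.0429, adjusted p = 0.172). The latter was -0.63 within groups (exact permutation p = 0.0185) and -0.24 without Control mouse 1 and AKI-CKD + EGT mouse 3 (n = 7, exact permutation p = 0.591). Macro Fth1 and the mitochondrial percentage had r = -0.57 over all 9 mice (exact permutation p = 0.105, adjusted p = 0.281) and -0.75 within groups (exact permutation p = 0.00463, the smallest possible). Without Control mouse 1 and AKI-CKD + EGT mouse 3 it was -0.31 (n = 7, exact permutation p = 0.466). The remaining 4 had r between -0.50 and 0.18.

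**Figure D5:**
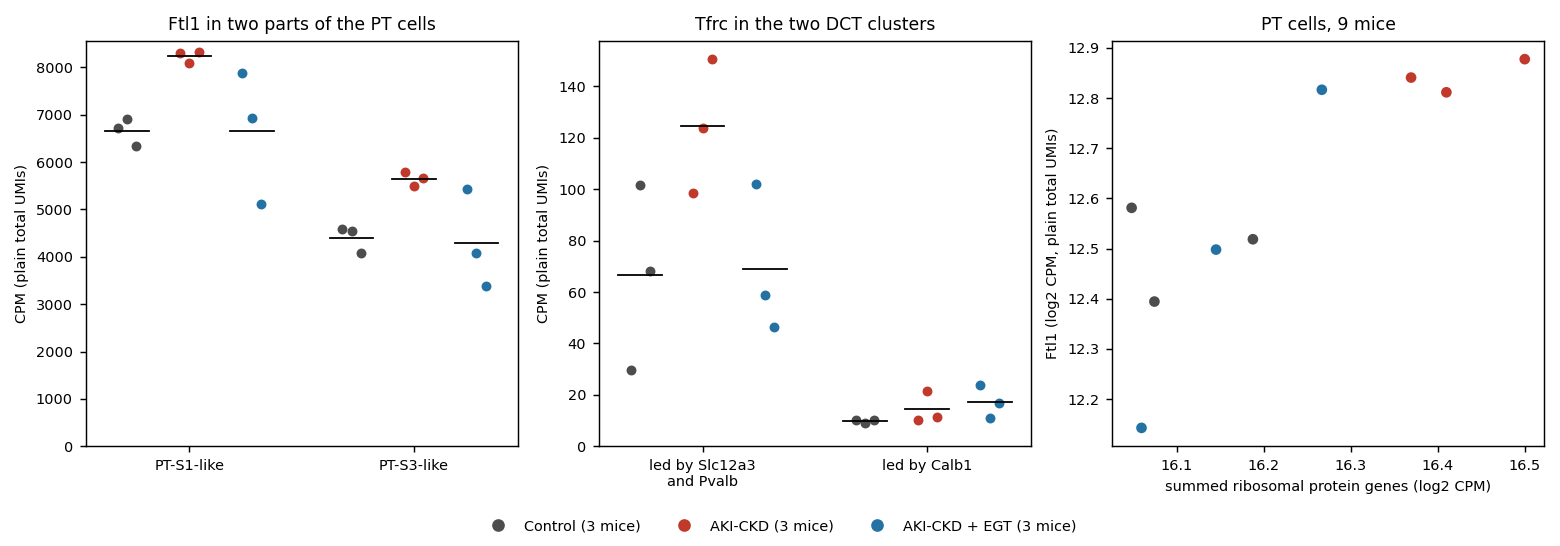
Left, Ftl1 CPM per mouse in S1-like and S3-like PT cells, middle, Tfrc CPM per mouse in both DCT clusters, and right, Ftl1 of PT cells against the summed ribosomal protein genes (both log2 CPM), with points colored by group and lines at group means. Ftl1 of AKI-CKD mice lies above Control in both subsets, Tfrc is high in the Slc12a3 and Pvalb cluster, and r on the right is 0.85 over 9 mice.

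Beyond the 10 members, 39 of 40 listed iron genes were in the matrices, and 34 were tested in PT cells. None was called in either comparison by edgeR (0 of 34). Against Control, 25 of 34 had a positive and 9 a negative log2 fold change, with a median of 0.08, and 7 higher and 1 lower did not overlap, beside 20.9% of all genes. With EGT, 8 were positive and 26 negative, with a median of -0.20, and 1 higher and 5 lower did not overlap, beside 21.1% of all genes. Of all 18031 genes, 2076 higher and 1689 lower did not overlap against Control, and 1828 higher and 1978 lower with EGT. The median over all genes was -0.01 in both comparisons. The list was not followed with a mouse left out. At an unadjusted p under 0.05 there were 2 higher and 2 lower against Control and 1 higher and 4 lower with EGT, beside 11.3% and 15.1% of all genes. Both comparisons share the AKI-CKD mice.

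The smallest p among them belonged to Bola2, which with Glrx3 forms a complex that carries iron-sulfur clusters in the cytosol. PT Bola2 was 182, 197 and 146 CPM in Control, 241, 335 and 272 in AKI-CKD and 228, 217 and 201 CPM in AKI-CKD + EGT mice. All AKI-CKD mice lay above both other groups, with log2 fold changes of 0.69 ± 0.16 (SE, adjusted p = 0.266) and -0.39 ± 0.16 (SE, adjusted p = 0.303). Glrx3 was 89.6, 89.4 and 106 CPM in AKI-CKD and 79.3, 70.5 and 59.1 CPM in AKI-CKD + EGT mice, with a log2 fold change of -0.45 ± 0.16 (SE, adjusted p = 0.268). Hfe, a regulator of iron sensing, was 6.33, 5.93 and 5.99 CPM in Control and 8.40, 9.16 and 9.87 CPM in AKI-CKD mice, with a log2 fold change of 0.59 ± 0.18 (SE, adjusted p = 0.343). Cp, ceruloplasmin, which oxidizes exported iron, was at 1.01 to 2.86 CPM in all mice, with log2 fold changes of -0.62 ± 0.27 (adjusted p = 0.437) and 0.81 ± 0.27 (adjusted p = 0.252).

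Macro cells gave 27 tested iron genes with 0 calls by edgeR. Bola2 again had the smallest p against Control, with 199, 194 and 168 CPM in Control, 298, 327 and 279 in AKI-CKD and 250, 242 and 233 CPM in AKI-CKD + EGT mice. The log2 fold changes were 0.69 ± 0.17 (adjusted p = 0.338) and -0.32 ± 0.17 (adjusted p = 0.672). The values of PT and Macro cells are not independent where PT RNA is carried over. Macro Glrx3 had log2 fold changes of 0.43 ± 0.21 (adjusted p = 0.644) and -0.52 ± 0.21 (adjusted p = 0.589), Hfe 0.68 ± 0.35 against Control (adjusted p = 0.660) and Alas1, the first enzyme of heme synthesis, -0.65 ± 0.33 with EGT (adjusted p = 0.649).

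Of 39 listed ferroptosis genes, 36 were tested in PT and 29 in Macro cells, and none was called by edgeR. In PT cells the median log2 fold change was 0.01 against Control (19 positive, 17 negative) and -0.08 with EGT (16 positive, 20 negative). The smallest p against Control belonged to Chac1, a glutathione-degrading enzyme at most at 1.90 CPM in any mouse (-1.53 ± 0.68, adjusted p = 0.437), Gclc, which makes the glutathione precursor (-0.59 ± 0.27, adjusted p = 0.439), and the heat shock gene Hspb1 (0.75 ± 0.34, adjusted p = 0.445). Gclc was 131, 70.5 and 56.3 CPM in Control and 57.9, 48.2 and 64.6 CPM in AKI-CKD mice, so Control mouse 1 stood apart. With EGT they belonged to Scd2 (1.88 ± 0.49, adjusted p = 0.233), Alox5 (1.89 ± 0.59, adjusted p = 0.243) and Mboat1 (1.58 ± 0.53, adjusted p = 0.253). All 3 were low genes, at most 7.57, 0.542 and 1.96 CPM, with the highest value in AKI-CKD + EGT mouse 3.

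In Macro cells the ferroptosis genes with the smallest p were Ptgs2, cyclooxygenase 2 (2.05 ± 0.70, adjusted p = 0.533), Gclc (-0.94 ± 0.36, adjusted p = 0.575) and Gch1 (1.21 ± 0.54, adjusted p = 0.640) against Control. With EGT they were Ptgs2 (-1.86 ± 0.68, adjusted p = 0.568), Vdac3 (-0.49 ± 0.20, adjusted p = 0.589) and Gclc (0.77 ± 0.37, adjusted p = 0.622). Macro Ptgs2 was 1.62, 6.98 and 5.20 CPM in Control, 5.78, 12.7 and 29.2 in AKI-CKD and 1.42, 9.64 and 1.54 CPM in AKI-CKD + EGT mice, with overlap in both comparisons.

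Genes with a similar pattern over the 12 named types were found by Pearson's r of log2 (mean CPM + 1), as a description, since the types share libraries and carried-over PT RNA. Fth1 and Ftl1 had r = 0.88 with each other. Ftl1 was most like Grik3 (0.995), its pseudogene Ftl1-ps1 (0.985) and A1cf (0.974), and Fth1 like Msrb1 (0.93), Pctp (0.93) and Selenbp1 (0.92). Acsl4 was most like its paralog Acsl3 (0.97), Atp6v0e, a subunit of the proton pump of intercalated cells (0.97), and Pdxk (0.96). Aco1 was most like Aldh5a1 (0.93), the mitochondrial iron-sulfur protein gene Cisd1 (0.92) and Alas1 (0.92). Tfrc was most like Larp1b (0.93), the magnesium channel gene Trpm7 (0.93) and Rsph10b (0.92), and Slc40a1 like Depdc7 (0.92), Sesn2 (0.90) and Fam149a (0.88). The closest genes were Vps53, Rer1 and Abca3 for Slc11a2 (0.85 to 0.86), Mix23, Odad1 and Kyat3 for Ncoa4 (0.90 to 0.91), Trappc9, Tmem161b and Edem3 for Ireb2 (0.88 to 0.91) and 2310010J17Rik, Rnf10 and Polr2m for Aifm2 (0.94 to 0.95).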

How the data were processed

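The authors deposited 1 matrix of raw UMI counts per mouse, written by PISA per the file headers, with genome build GRCm39 per the submitters' processing notes. The aligner and gene annotation are not given in the sources used here. Reads are counted once per molecule by UMI, and no normalization precedes the deposit. Barcodes with at least 1000 UMIs, 500 genes and at most 15% mitochondrial UMIs were kept. Scrublet's own calls were not usable (0 to 2 cells in 8 libraries and 22.8% in AKI-CKD + EGT mouse 1), so doublets were left in and the 6% of cells with the highest scores were left out in an alternative. The median UMIs per kept cell in the 9 libraries were 2534 to 2966.

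Cells were clustered with scanpy 1.11.5 (2000 variable genes, 30 components, Harmony between mice, Leiden resolution 1.1) without the members, the iron and ferroptosis lists and mitochondrial, ribosomal protein and oxidative phosphorylation genes, except markers. Clusters were named from at least 3 markers at 2-fold enrichment, except a cluster led by hemoglobin genes and 1 led by long neuronal genes (354 cells), left unnamed after they were seen. A cluster under 50 cells (8 cells) also stayed unnamed, and a mouse and type with under 20 cells was left out. Sums of UMI counts over the cells of a type in each mouse were fitted, and edgeR 4.0.16 (R 4.3.3) was run with TMM scaling, filterByExpr, a quasi-likelihood fit over all 9 mice and Benjamini-Hochberg adjustment over all genes, two-sided. DESeq2 1.42.0 was an alternative. Differences between cell types used limma 3.58.1 on within-mouse log2 CPM (prior count 1). The edgeR and limma fits were also run on simulated counts. In the limma run the cell types were drawn independently, without carried-over RNA or an effect shared within a mouse. That run therefore cannot show how the fit behaves where types share RNA. Unless given as TMM-scaled, CPM is per plain total UMIs.

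All 10 members are described by level. A member has its test values between groups where it was called or the groups did not overlap. The values of PT Ncoa4, DCT Tfrc and LOH Ftl1 are given beyond this rule. From the iron and ferroptosis lists the 3 genes with the smallest p in PT and Macro cells are named. The members and lists were chosen with earlier results of these data known. Iron-responsive elements were searched in GENCODE vM21 on GRCm38, another build than that of the counts, so their coordinates stand apart from the counts. The samples are separate mice. The p-values of edgeR and limma set a difference between groups against the spread between mice, estimated over all mice of the fit. Those of the correlations come from permuted pairings of the mice.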

Additional observations from a re-analysis of the deposited data

How the results depend on the processing

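In the comparisons between groups within a population, no member of the 10 was called by DESeq2, by RLE scaling, by a library size without mitochondrial, ribosomal protein and Malat1 counts, in fits of only the 6 mice compared, at a mitochondrial limit of 10%, without the 6% highest doublet scores, by either other clustering or without any 1 mouse. Without the low-count filter 1 member, Tfrc in DCT cells, was called in each comparison (main 0), beside 0.96% and 2.08% of all genes of that fit. The cause was not tested. The fit with the replicate number as a replicate block called 0 members, with PT Ftl1 at 0.44 and -0.57 (log2). The labels do not say whether mice of the same number share a batch. Their deviations correlated at -0.458 to 0.373 over all cells and -0.422 to 0.329 in PT cells. Mice of different numbers had -0.411 to 0.473 and -0.329 to 0.425. With deviations taken from means of 3 mice, these values cannot decide whether a batch was shared.

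Counts of members without overlap moved most. Only the larger moves are listed, and smaller ones are left out, such as LOH cells with EGT at a mitochondrial limit of 10% (2, main 3). In the next 4 settings the share of all genes without overlap was 11.4% to 22.5%, within 1.7 percentage points of the main share of each population. At a mitochondrial limit of 10% they were 1 in PT cells with EGT (main 2), 1 in LOH (2) and 2 in Macro cells (1) against Control, and 2 in Endo cells with EGT (0). Without the highest doublet scores they were 2 over all cells with EGT (main 1), 0 in DCT cells against Control (1) and 1 in Endo cells in each comparison (0), and the Endo median with EGT was 0.23 (main -0.01). With no gene kept out of the clustering they were 0 in LOH cells in both comparisons (main 2 and 3) and 1 in Endo cells with EGT, the medians were 0.0619 in LOH cells with EGT (main -0.03) and 0.0202 in DCT cells against Control (main 0.14), and LOH Ncoa4 turned from -0.09 to 0.0897. Without Harmony they were 1 in PT (main 2), 0 in LOH (2), 3 in DCT (1), 2 in Macro (1) and 1 in Endo cells (0) against Control and 0 in LOH (3) and 1 in Endo cells (0) with EGT, the LOH median against Control was 0.0038 (main -0.15), and LOH Ncoa4 was 0.0919. Without the highest doublet scores, 1 member, Ftl1, was called for LOH minus PT with EGT (main 0), beside 2.92% of all genes (main 2.08%). Of 130 levels, 6 moved by over 1 SD with no gene kept out of the clustering and 1 without Harmony. In the former, 5 of 10 members had their highest level in the type of the main clustering (not Slc40a1, Ncoa4, Aco1, Ireb2 and Aifm2), and without Harmony 7 (not Slc40a1, Ncoa4 and Ireb2).

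Leaving out 1 mouse gave 1 to 5 members without overlap over all cells with EGT (18% to 37.7% of all genes), 2 to 4 in PT cells against Control (20.6% to 34.8%) and 2 to 6 with EGT (21% to 42.5%), and 2 to 4 in LOH cells against Control (16.9% to 29.9%). It gave 1 to 4 in DCT cells against Control (15.7% to 29.8%) and 3 to 8 with EGT (17.5% to 41.6%), 1 to 3 (13.1% to 29.3%) and 2 to 6 (12.6% to 28.4%) in Macro cells, and 0 to 2 (14.4% to 28.3%) and 0 to 3 (14.7% to 29.2%) in Endo cells. A group of 2 mice raises this share for all genes, and the highest counts over all cells and in PT and DCT cells with EGT were those without AKI-CKD + EGT mouse 1, as were their highest shares of all genes. Medians ranged from -0.24 to -0.0068 over all cells, -0.21 to -0.012 in PT and -0.22 to -0.0391 in DCT cells with EGT, -0.0247 to 0.0928 over all cells, 0.0317 to 0.10 in PT and -0.16 to 0.17 in Macro cells against Control, -0.12 to 0.0826 in Endo cells with EGT, -0.15 to 0.0576 in LOH cells with EGT, 0.0107 to 0.19 in DCT cells against Control, -0.11 to 0.35 in Macro cells with EGT and -0.23 to 0.14 in Endo cells against Control. The LOH minus PT count with EGT was 0 to 1, with the call made without AKI-CKD + EGT mouse 1, where 8.29% of all genes were called.
The causes of these moves were not tested. Over all genes, calls against Control by edgeR and DESeq2 were 4 and 109 over all cells, 8 and 188 in PT, 11 and 47 in LOH, 0 and 11 in DCT, 4 and 21 in Macro and 0 and 28 in Endo cells. With EGT they were 1 and 215, 0 and 404, 16 and 104, 0 and 80, 1 and 11, and 1 and 84, in the same order. With 3 mice per group, and as few as 3 Ireb2 UMIs in a Macro library, small changes could not be seen. Changes of abundant genes could be missed too, as the SE of PT Ftl1 was 0.23 (log2) in both comparisons. Its log2 fold changes of 0.44 and -0.54 were not called. The groups were apart for Ftl1 and for 20.9% and 21.1% of all genes, so whether Ftl1 changed cannot be told. The lack of calls therefore does not show that these genes were unchanged.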
